A study of Mus musculus with 62 samples.

Results

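The nuclear-encoded genes of the respiratory chain were described in individual cells of a pancreatic cancer line from mice with the C57BL\6 strain background, KPC1199-EGFP, which expresses EGFP. The genes were chosen by name. All rows whose symbol begins with Nduf, Sdha to Sdhd, Uqcr, Atp5 or Cox4 to Cox8 were taken, without the assembly factors named Ndufaf and Sdhaf and without pseudogenes. This gave 79 genes of 19112 gene rows, 36 of complex I, 4 of complex II, 8 of complex III, 14 of complex IV and 17 of complex V. Of these, 77 encode subunits or close relatives of subunits, and 2, Atp5s and Atp5sl, are named for ATP synthase without being subunits of it. Ndufa4 and its relative Ndufa4l2 carry complex I names and were counted with complex IV, where the Ndufa4 protein is now placed.

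The data were RNA-sequencing libraries of 62 single cells from 1 untreated adherent culture at passage 9, captured and amplified on the Fluidigm C1 system. All the cells share the line, the strain background, the EGFP transgene and the culture, so there was 1 group and no comparison between conditions. Values over cells are a description of this culture, and no p-value was computed from them. The ERCC sequences, synthetic spike-in RNAs, took 0.19% to 1.83% of all counts in 50 libraries and 22.3% to 97.2% in the other 12, and the results below are of the 50. Their gene counts ranged from 2153900 to 12868800 with a median of 7194660.

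The respiratory chain moves electrons from NADH through complex I and from succinate through complex II to ubiquinone, and on through complex III and cytochrome c to oxygen at complex IV. Complexes I, III and IV pump protons across the inner mitochondrial membrane, and complex V, the ATP synthase, uses the proton gradient to make ATP. Some core subunits are encoded by mitochondrial DNA and were not analysed here. Pancreatic cancer cells are known for active glycolysis, and many also use oxidative phosphorylation.

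The libraries had the profile of the labelled epithelial tumour line. Of 9 ductal epithelial markers, 8 were found in at least 50% of the 50 cells, and their summed share of gene counts ranged from 0.722% to 9.41%. Of 8 immune markers only Cd14 reached that share of libraries, Cd3e, Lyz2 and Csf1r were at 0 in every library, and the summed share was at most 0.0485%. Of 8 fibroblast markers, Col1a1 and Acta2 reached that share of libraries, with medians of 0.229 and 0.414 CPM. Fibroblast markers summed to at most 0.0104%, with Col1a2, Pdgfrb, Dcn and Lum at 0. Endothelial markers summed to at most 0.0215%, with Pecam1, Cdh5, Kdr and Tek at 0. Acinar markers summed to at most 0.00974%, with Cpa1 and Amy2a5 at 0, and striated muscle markers to at most 0.0258%, with Myh7, Myh6, Myh4 and Des at 0. Of the 8 muscle markers in the table, Acta1 (median 0.380 CPM) and Tnnt2 (9.54 CPM) were found in at least 50% of libraries.

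Libraries 19 and 17 stood apart from the other 48. Among 1600 genes whose median level was above 7 on the log2(CPM + 1) scale, where CPM is counts per 1000000 gene counts, library 19 had 128 under 1 and library 17 had 125, against 0 to 72 in the others. In library 19 the common genes with transcripts over 2 kb lay by their median 0.76 below their usual level on the log2 scale, and those under 1 kb lay 0.16 above it. In library 17 the genes over 2 kb lay 0.39 below, while in the other 48 this shift ran from -0.28 to 0.21. Both were kept, and several values that rest on library 19 are given with and without it.

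Nearly every gene of the chain was found in nearly every cell. A value above 0 in 50% or more of the 50 libraries was found for 77 of the 79 genes, where 48.6% of all gene rows were. Above 0 in every library were 73 of the 79, against 11.4% of all gene rows. Ndufs1 and Uqcrc2 were above 0 in 49 of 50, and the library that lacked both was library 19. Atp5s was found in 28 libraries and Atp5sl in 31, the 2 genes that do not encode subunits. The tissue-restricted Cox7a1 was found in 21 of 50 libraries (42%, exact Clopper-Pearson 95% interval 28.2% to 56.8%). Ndufa4l2, a relative of Ndufa4 known as a target of hypoxia signalling, was found in 2 of 50 (4%, interval 0.488% to 13.7%), each time with no more than 1 count. These intervals cover the sampling of cells only.

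Together the 79 genes took 2.23% of gene counts in the lowest cell, 2.74% in the median cell and 3.79% in the highest. Their share of gene counts therefore varied less than 2-fold between cells. The amount of their RNA per cell was not computed. Complex V held a median of 33.7% of the counts of the group and complex I 33.4%. Complex IV followed with 19.04%, complex III with 9.64% and complex II with 4.95%. Over the cells these shares ran from 29.04% to 36.5% for complex I and from 29.5% to 36.6% for complex V. Library 19 had the lowest share of complexes II (3.36%) and III (7.37%) and the highest share of complex IV (23.8%). Without it the lowest shares were 3.48% and 7.39% and the highest was 22.6%.

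**Figure D1:**
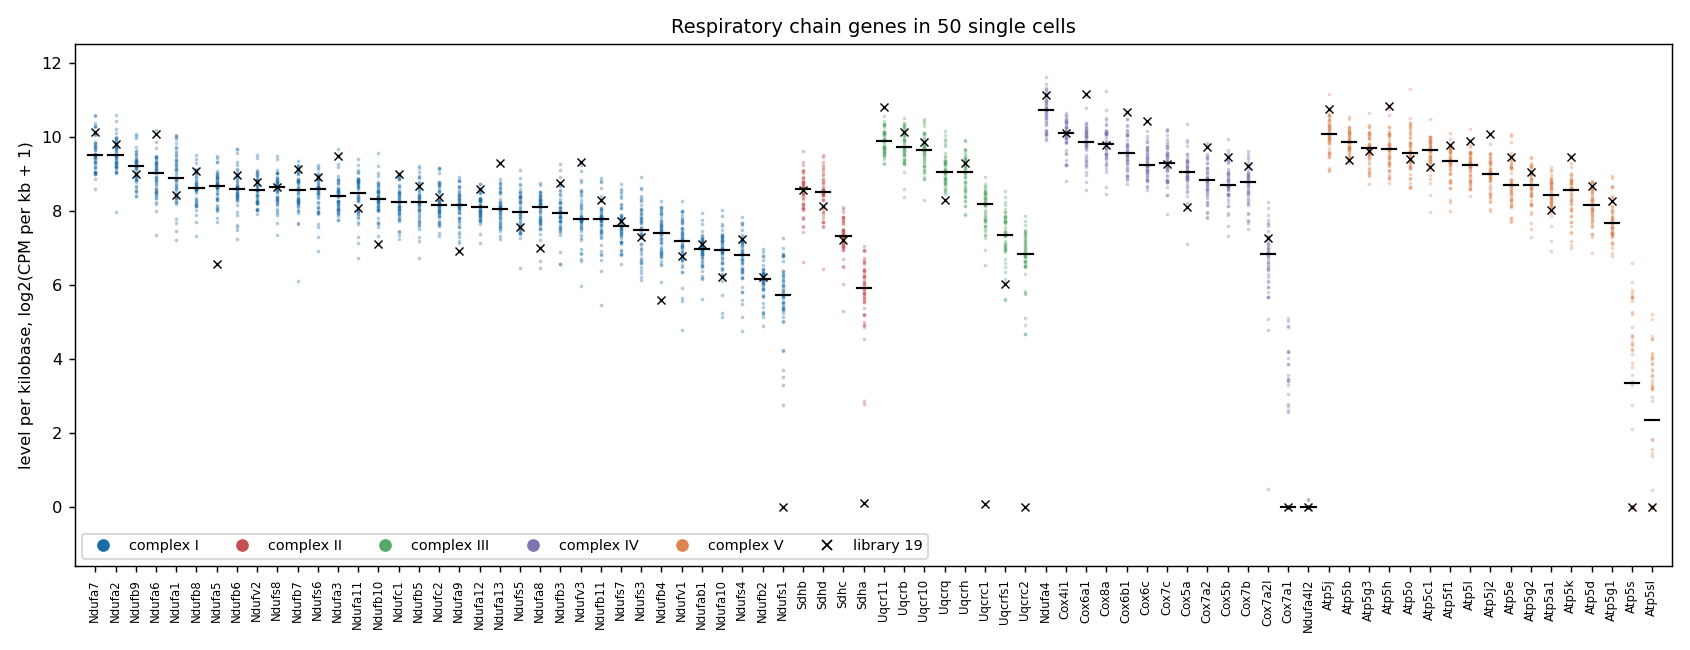
Level per kilobase of 78 of the 79 genes by complex, as log2(CPM per kb + 1). Each dot is 1 of 50 cells, black bars are medians and crosses mark library 19. Most genes form narrow columns, while Cox7a1, Ndufa4l2, Atp5s and Atp5sl reach 0 in many cells, and library 19 lies far below the rest for Sdha, Uqcrc1, Uqcrc2 and Ndufs1.

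Levels between genes were compared per kilobase of transcript, as the mean over cells of log2(CPM per kb + 1). On this scale the median member was at 8.16 in complex I, 7.86 in complex II, 9.04 in complex III, 9.15 in complex IV and 8.97 in complex V. The spread of that median over cells, 0.23 to 0.34 (SD, n = 50 cells), was smaller than the gap between complexes I and II on one side and III, IV and V on the other. The gaps among III, IV and V were within it. With coding length in place of transcript length complexes I and II exchanged their order. With the mean over members in place of the median, complex IV (8.001) was level with complex I (8.01). The mean of complex IV takes in Cox7a1 (1.57) and Ndufa4l2 (0.0087), each found in under 50% of libraries.

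In complex I the highest levels per kilobase belonged to accessory subunits. Ndufa7 was at 9.56 ± 0.47 on the log2 per-kilobase scale (SD, n = 50 cells), Ndufa2 at 9.54 ± 0.43 and Ndufb9 at 9.15 ± 0.39. In CPM, Ndufa7 ranged from 201 to 817 with a median of 385, Ndufa2 from 142 to 869 with a median of 415, and Ndufb9 from 237 to 760 with a median of 412. Among the core subunits, which carry the flavin and the iron-sulphur clusters, levels and spread differed. Ndufs1, a core subunit of the arm that takes electrons from NADH, had 0 CPM in library 19, a median of 136 and a highest value of 400. A count of 0 in library 19 allows up to 0.335 CPM (3 counts), and without that library the lowest value was 15.05 CPM. Ndufv1, the flavin subunit that accepts electrons from NADH, ranged from 40.4 to 467 CPM with a median of 221, whereas its partner Ndufv2 stayed between 317 and 949 with a median of 492.

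Complex II, which also belongs to the citric acid cycle, had 4 genes of unequal level. Sdhb, the iron-sulphur subunit, was at 8.46 ± 0.54 per kilobase, the membrane anchor Sdhd at 8.44 ± 0.56 and the other anchor Sdhc at 7.28 ± 0.49 (log2 scale, SD, n = 50 cells). Sdhb and Sdhd did not differ beyond their spread. Sdha, the flavin subunit that oxidises succinate, was lowest at 5.71 ± 1.18. Its CPM ran from 0.223 in library 19 over a median of 172 to 384. Without library 19 the lowest value was 17.1, and the SD of log2(CPM + 1) went from 1.33 to 0.89.

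In complex III the highest levels belonged to small subunits. Uqcr11 was at 9.89 ± 0.34 on the log2 per-kilobase scale, Uqcrb at 9.73 ± 0.44 and Uqcr10 at 9.60 ± 0.44 (SD, n = 50 cells). Uqcr11 ranged from 273 to 800 CPM with a median of 419, a 2.93-fold range, the narrowest of all members but Atp5b. Its highest cell was library 19, and without that library its highest value was 672 CPM. The larger core proteins spread more over all 50 cells. Uqcrc1 (core protein 1) had 0.112 CPM in library 19, which is 1 count, a median of 475 and a highest value of 798. Without library 19 its lowest value was 151 CPM. Its SD on the log2(CPM + 1) scale then went from 1.31 to 0.49, near the 0.51 of the small subunit Uqcrh. Uqcrc2 (core protein 2) had 0 in library 19, a median of 215 CPM and a highest value of 437, and without library 19 its lowest value was 46.1 CPM. Uqcrfs1, the Rieske iron-sulphur protein, ranged from 64.8 to 506 CPM with a median of 221.

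Complex IV held the highest gene per kilobase of the whole group. Ndufa4 was at 10.68 ± 0.43, Cox4i1, a subunit needed early in assembly, at 10.02 ± 0.40 and Cox6a1 at 9.85 ± 0.52 (log2 per-kilobase scale, SD, n = 50 cells). In CPM, Ndufa4 ranged from 444 to 1438 with a median of 778. Cox4i1 ranged from 336 to 1208 with a median of 822. Cox6a1 ranged from 213 to 1286 with a median of 533, and its highest cell was library 19. Without that library its highest value was 1259 CPM, in library 17, and without both it was 993 CPM, in library 58. Cox8a, another small subunit, ranged from 193 to 1317 with a median of 490.

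In complex V, Atp5j (coupling factor 6 of the peripheral stalk) was at 10.06 ± 0.45, Atp5b (the catalytic beta subunit) at 9.84 ± 0.29 and Atp5g3 (a gene of the c-ring) at 9.66 ± 0.40 on the log2 per-kilobase scale (SD, n = 50 cells). Atp5b ranged from 1201 to 2844 CPM with a median of 1780, and its SD on the log2(CPM + 1) scale, 0.29, was the smallest of all 79 except for Ndufa4l2, which was near 0 throughout. Atp5a1, the alpha subunit that alternates with beta in the catalytic head, ranged from 308 to 1482 CPM with a median of 873. Atp5k, a small membrane subunit, ranged from 41 to 228 CPM with a median of 121.

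Subunits with paralogs were dominated by the widely expressed forms. The shares are of the summed CPM per kilobase of each set in a cell. In the Cox7a set, Cox7a2 held between 59.5% and 99.95% with a median of 79.02%. Cox7a2l, known as a factor that joins complexes III and IV, held a median of 20.2% and at most 40.5%. Whether its protein does so in cells of this strain background was not measured. The lowest share of Cox7a2l, 0.0458%, and its lowest level, 0.443 CPM, were in library 17. Cox7a1, the heart and muscle form, had a median of 0% and at most 4.94%. Ndufa4 held at least 99.99% of its pair in every cell. The 3 genes for the identical c-ring peptide were all present in all cells. Atp5g3 was highest with a median of 56.6% and a range of 39.5% to 69.9%, Atp5g2 followed with 28.2% (10.1% to 46.2%), and Atp5g1 had 13.5% (9.37% to 27.9%). The ranges of Atp5g3 and Atp5g2 overlapped. The last place of Atp5g1 rests on its annotated transcript length of 2675.5 bases, against 586 for Atp5g2 and 718.5 for Atp5g3. Their coding lengths were close, at 408 (Atp5g1), 438 (Atp5g2) and 423 bases (Atp5g3). In CPM without length the medians were 542 (Atp5g1), 242 (Atp5g2) and 589 (Atp5g3), so Atp5g1 then stood above Atp5g2. Shares by coding length were not computed. Cox4i2, Cox6a2, Cox6b2, Cox7b2, Cox8b and Cox8c were not analysed here.

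Cell-to-cell variability was taken as a residual, the log2 squared coefficient of variation of CPM minus the trend over genes of the same mean level. The residual was below 0 in 68 of the 78 members tested, against 50.7% of 12012 genes tested. The median residual was -0.54 for the members and -0.01 for all genes tested. The members thus lay mostly below the trend, by complex with medians of -0.75 (I), -0.14 (II), -0.69 (III), -0.33 (IV) and -0.39 (V). Without library 19 the residual was below 0 in 70 members and in 50.6% of all genes tested.

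The least variable member for its level was Ndufa12, an accessory subunit of complex I, with a residual of -1.91 and a CPM range of 116 to 356 around a median of 228. In the other complexes the smallest residuals were those of Uqcr11 (-1.09), Sdhc (-0.89), Cox7a1 (-1.13) and Atp5k (-1.10). Without library 19 these were -1.37, -0.82, -1.13 and -1.20. Cox7a1 was at 0 in most cells, so its value belongs to the low end of the trend. The largest residual was 0.69, of Atp5o, the subunit that ties the peripheral stalk to the catalytic head. Atp5o ranged from 267 CPM in library 28 to 1708 in library 14 with a median of 512. Atp5g1 followed with a residual of 0.43, a range of 292 to 1308 CPM and a median of 542. Cox6a1 had 0.27 and Cox8a 0.08 in complex IV, and without library 19 these were -0.003 and 0.15. In complex I, Ndufs1 had 0.20 and Ndufv3, an accessory subunit of the flavin arm that ranged from 39.4 to 412 CPM, had 0.11. Without library 19 Ndufs1 kept 0.20 and Ndufv3 had -0.03. The largest residuals of complex II were -0.01 for Sdhd and -0.06 for Sdha, and without library 19 they were 0.03 and -0.10. Those of complex III lay below 0, at -0.14 for Uqcrfs1 and -0.26 for Uqcrc2, and at -0.17 and -0.34 without library 19.

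**Figure D2:**
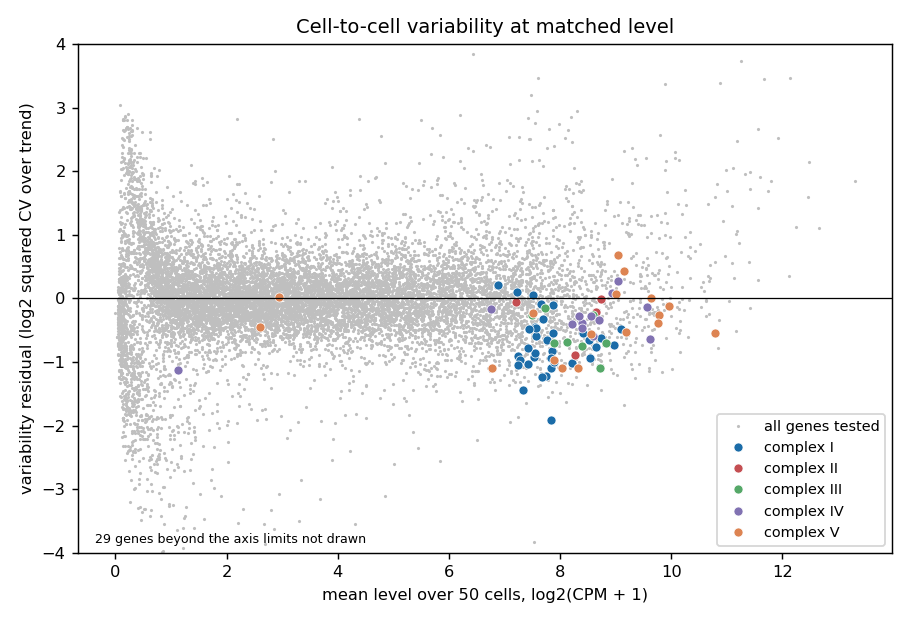
Variability residual against mean level, log2(CPM + 1), over 50 cells. Grey points are all genes tested and coloured points the members by complex, and 68 of 78 members lie below 0, with Ndufa12 lowest at -1.91 and Atp5o highest at 0.69.

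Across cells the members were weakly correlated with each other. The mean Pearson r of log2(CPM + 1) over the 3003 pairs of 78 members was 0.127, and 71.3% of pairs were above 0. The mean was 0.023 over pairs of all genes tested and 0.014 over pairs of the 2179 genes above 0 in every library. The r values describe 50 cells that share a culture. The mean r was 0.131 between genes of the same complex and 0.126 between genes of different complexes. By complex the mean r was 0.124 (I), -0.08 (II), 0.170 (III), 0.220 (IV) and 0.117 (V). Without library 19 the mean over all pairs was 0.133, and that within complex II was -0.10.

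The mean r differed with transcript length. The 50 members with transcripts under 1 kb had a mean r of 0.227 with each other. The 28 longer members had a mean r of 0.045 with each other and of 0.062 with the short ones. Without library 19 these values were 0.235, 0.022 and 0.075. The longer set holds most catalytic and core subunits (Ndufs1, Ndufv1, Sdha to Sdhd, Uqcrc1, Uqcrc2, Uqcrfs1, Atp5a1, Atp5b), and the short set holds most accessory subunits. Role and transcript length thus overlap, though only in part. The accessory subunits Ndufa13 and Ndufs4 are in the longer set, and the core subunits Ndufs7 (870.5 bases) and Ndufs8 (980 bases) are in the short set. Roles were not compared within a length class.

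**Figure D3:**
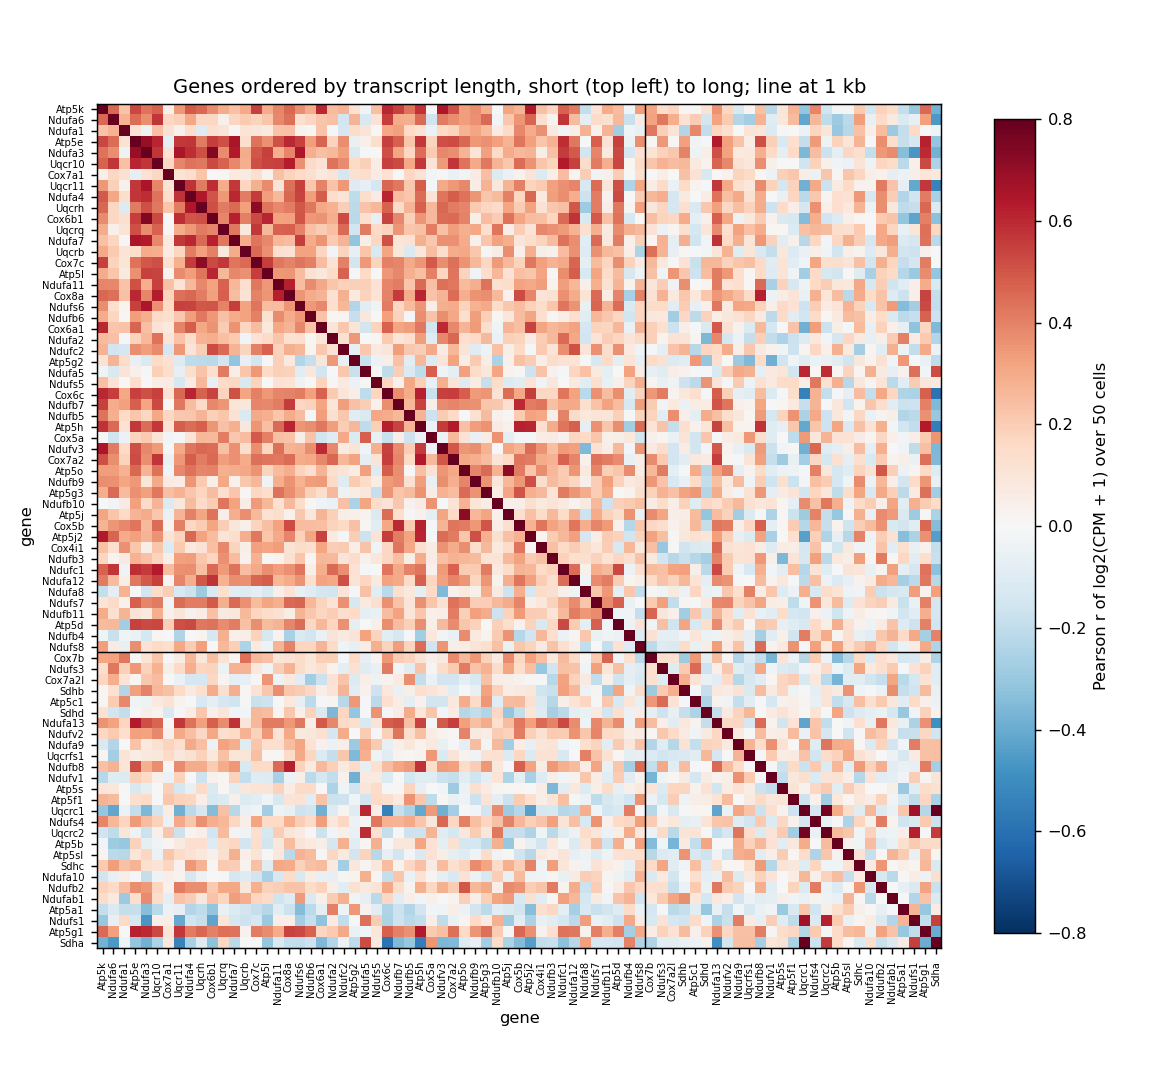
Pearson r of log2(CPM + 1) over 50 cells for every pair of 77 of the 78 members tested, ordered by transcript length with a line at 1 kb. The short members at top left are mostly red (mean r 0.227), the longer members at bottom right are mixed (mean r 0.045), and the strong square of Uqcrc1 with Uqcrc2 rests on library 19.

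Each cell's own share of short transcripts moved with the group. This share is the percentage of gene counts in transcripts under 1 kb with the members left out, and it ran from 16.2% to 23.5% with a median of 20.2%. Ribosomal protein genes gave 21.1% of those short counts. Members with an r above 0 with this share were 66 of 78, against 39.7% of 11208 genes tested with a known length. By length class they were 49 of 50 short members, where 70.2% of all short genes were above 0, and 17 of 28 long members, where 36.96% of all long genes were. Ndufc1 had the highest r of all members, 0.67, and Atp5l had 0.65. Sdha had the lowest, -0.43, followed by Ndufv1 (-0.35). Ndufa13, Atp5g1 and Cox7b, long by their annotated transcripts, stood with the short genes at 0.58, 0.53 and 0.50. Across the 78 members, r of length with this value was -0.63 (rho -0.58), and across the 11208 genes it was -0.16 (rho -0.09). Genes are not independent replicates. With the short-transcript share regressed out of every gene, the mean r was 0.070 over all members, 0.105 among the short and 0.046 among the long.

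**Figure D4:**
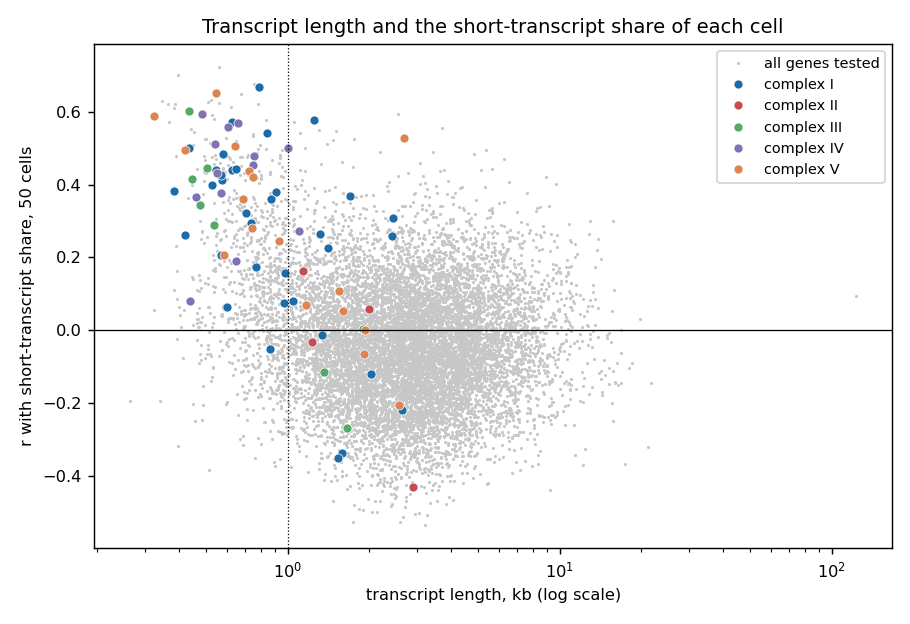
Transcript length in kb on a log scale against r with the short-transcript share of each cell, over 50 cells. Grey points are genes tested and coloured points the members by complex. Members under 1 kb lie almost all above 0, while Sdha and Ndufv1 among the longer ones lie below -0.3.

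The pairs with the highest r fell into 2 kinds. Sdha with Uqcrc1 (r = 0.83) and Uqcrc1 with Uqcrc2 (0.77) owed much or all of their r to library 19. Without it their r was 0.53 and -0.03. Another 3 of the highest pairs did not. Cox6b1, a subunit at the contact between the monomers of the complex IV dimer, and Ndufa3, a small complex I subunit, had r = 0.74, and 0.71 without library 19. Cox7c of complex IV and Uqcrh, the hinge protein of complex III, had 0.71, and 0.72 without it. Atp5j and Atp5o, both of the peripheral stalk of ATP synthase, had 0.71, and 0.74 without it. Without the 2 cells farthest from the median, r was 0.67, 0.67 and 0.68 for these pairs, and within blocks of 12 label numbers it was 0.77, 0.71 and 0.72. In CPM, Cox6b1 ranged from 204 to 791 with a median of 365 and Ndufa3 from 92.5 to 349 with a median of 145. The highest Cox6b1 value was in library 19, and without that library it was 691. Cox7c ranged from 130 to 642 with a median of 335 and Uqcrh from 113 to 459 with a median of 250.6. Atp5j ranged from 398 to 1683 with a median of 793. Library 14 was highest for both Atp5j and Atp5o. At the other end, Cox6c with Sdha had -0.59 and Cox6c with Uqcrc1 -0.54, and without library 19 these were -0.49 and -0.52. These pairs are the extremes of 3003 and were chosen for their values.

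The start regions of those 3 pairs are shown because their genes moved together without library 19. Each runs from 250 bases before to 50 bases after a transcription start in RefSeq on build GRCm38.p6, written 5′ to 3′ along the gene. Both genes of the first pair lie on chromosome 7 (Cox6b1 at chr7:30626065-30626364, minus strand, and Ndufa3 at chr7:3617123-3617422, plus strand). Cox7c is at chr13:86046746-86047045 and Uqcrh at chr4:116075021-116075320, both on the minus strand. Atp5j is at chr16:84834927-84835226, the second of its listed starts, and Atp5o at chr16:91931581-91931880, both on the minus strand. Capitals mark CCGGAAG, a core bound by ETS factors such as GABP, and AAGATGGCG, a core of YY1 sites, each searched on both strands, so that CTTCCGG is the first on the other strand.
Cox6b1: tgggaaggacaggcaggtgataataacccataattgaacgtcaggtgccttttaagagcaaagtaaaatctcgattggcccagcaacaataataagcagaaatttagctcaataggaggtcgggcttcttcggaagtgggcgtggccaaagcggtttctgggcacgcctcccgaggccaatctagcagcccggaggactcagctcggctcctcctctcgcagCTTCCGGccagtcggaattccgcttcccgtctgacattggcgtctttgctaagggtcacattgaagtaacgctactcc
Ndufa3: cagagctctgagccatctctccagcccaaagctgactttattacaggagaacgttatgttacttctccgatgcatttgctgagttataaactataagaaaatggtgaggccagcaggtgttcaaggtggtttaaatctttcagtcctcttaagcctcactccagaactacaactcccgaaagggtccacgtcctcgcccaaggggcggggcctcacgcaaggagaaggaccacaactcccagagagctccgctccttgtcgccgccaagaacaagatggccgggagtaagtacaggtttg
Cox7c: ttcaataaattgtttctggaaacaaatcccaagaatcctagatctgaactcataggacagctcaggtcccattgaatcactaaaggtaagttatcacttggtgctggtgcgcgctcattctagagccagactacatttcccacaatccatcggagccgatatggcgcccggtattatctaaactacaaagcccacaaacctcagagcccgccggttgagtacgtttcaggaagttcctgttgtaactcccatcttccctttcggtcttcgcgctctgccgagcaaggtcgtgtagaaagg
Uqcrh: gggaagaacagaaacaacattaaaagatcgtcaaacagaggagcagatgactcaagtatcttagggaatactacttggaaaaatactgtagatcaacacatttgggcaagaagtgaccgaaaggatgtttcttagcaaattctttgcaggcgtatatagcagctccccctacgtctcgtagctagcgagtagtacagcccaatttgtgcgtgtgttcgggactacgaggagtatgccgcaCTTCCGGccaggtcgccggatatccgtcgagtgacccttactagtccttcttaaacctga
Atp5j: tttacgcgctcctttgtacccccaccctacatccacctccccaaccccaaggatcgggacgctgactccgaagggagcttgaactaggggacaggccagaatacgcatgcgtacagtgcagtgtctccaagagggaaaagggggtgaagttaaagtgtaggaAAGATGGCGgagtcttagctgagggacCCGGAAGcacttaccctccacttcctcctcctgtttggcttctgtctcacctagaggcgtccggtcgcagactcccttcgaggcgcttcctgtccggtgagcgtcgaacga
Atp5o: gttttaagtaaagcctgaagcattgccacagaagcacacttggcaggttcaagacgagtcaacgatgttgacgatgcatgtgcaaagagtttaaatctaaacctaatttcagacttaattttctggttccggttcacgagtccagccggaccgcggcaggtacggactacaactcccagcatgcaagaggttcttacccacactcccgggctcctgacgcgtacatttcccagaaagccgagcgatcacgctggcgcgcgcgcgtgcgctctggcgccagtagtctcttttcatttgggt

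In each of these pairs one start region held the ETS letters and the other held neither motif. The first listed start of Atp5j held neither. The ETS letters began 28 bases before the start in Cox6b1, 10 before it in Uqcrh and 61 before it in Atp5j, where the YY1 letters began 88 before. Of the 79 members, 67 had a listed start region. The ETS letters were in 16 of the 67 (23.9%), against 9.93% of 27025 genes with a listed region and 20.5% of 9595 of those that were tested here. The YY1 letters were in 8 (11.9%), against 1.64% and 3.65%. The letters GCGCATGCG, a core of the site of nuclear respiratory factor 1, were in 8 (11.9%, among them Uqcrc1, Uqcr11 and Cox6a1), against 1.95% and 4.09%. For the ETS letters the share among members was thus near that of expressed genes. A match of letters is a description and no binding was measured.

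Most known regulators of mitochondrial gene expression were found in fewer cells than the members. Tfam, which packages and transcribes mitochondrial DNA, was above 0 in 50 of 50 cells with a median of 66.9 CPM and a range of 1.67 to 268. Yy1 was found in 47 cells (median 22.2 CPM), the GABP genes Gabpa and Gabpb1 in 43 each (medians 41.1 and 40.3), Nrf1 in 42 (18.98) and the mitochondrial transcription factor gene Tfb2m in 42 (48.8). Esrra, an orphan nuclear receptor, was found in 38 cells (0.256 CPM), the coactivator gene Pprc1 in 36 (7.20) and Tfb1m in 24 (0). The mitochondrial RNA polymerase gene Polrmt was found in 12 cells, and the coactivator genes Ppargc1a in 15 and Ppargc1b in 4, each with a median of 0 CPM. The regulators' summed CPM had r = 0.05 with that of the members on the log2 scale, and 0.31 without the 2 farthest cells. At such levels a weak r is not a finding.

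Genes that act with the chain differed in how they moved with it. The relations below are Pearson r of log2 summed CPM over 50 cells, computed for 20 lists. Both sums of a cell come from the same library and depth, which differ between cells. Levels are given as log2(CPM per kb + 1). ATP synthase genes outside the name rule had the highest, 0.77 (rho 0.69, and 0.60 with the short-transcript share regressed out). They were Usmg5 at 10.38, Atpif1, the inhibitor of the enzyme, at 9.89, and 2010107E04Rik at 8.60. The mitochondrial ribosome, which translates the subunits encoded by mitochondrial DNA, had 0.65 over 77 genes (rho 0.62, regressed 0.48), with Mrps21 at 9.00, Mrpl42 at 8.88 and Mrpl28 at 8.68. The cytosolic ribosome had 0.45 over 87 genes, with Rps2 at 11.12 and Rps18 at 11.04, and 0.04 with the short-transcript share regressed out.

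Assembly factors of the complexes, which are not part of the finished enzymes, varied in level. For complex IV, 20 of 21 were above 0 in at least 50% of cells, led by Coa3 at 9.03, Cox14 at 8.25 and Cox20 at 7.15, and their sum had r = 0.62 with the members (rho 0.47, regressed 0.61). For complex I, 13 of 13 listed in the table were found in that share of cells, led by Ndufaf2 at 6.35, Ndufaf1 at 5.37 and Ndufaf7 at 5.06 (r = 0.22). The leading factors of complex III were Uqcc2 at 8.93, Uqcc3 at 5.42 and Uqcc1 at 4.16 (r = 0.18, and 0.0067 with the short-transcript share regressed out). Those of complex II were Sdhaf4 at 6.17, Sdhaf2 at 4.54 and Sdhaf1 at 2.40 (r = -0.14), and those of complex V were Tmem70 at 5.48, Atpaf2 at 4.85 and Atpaf1 at 2.94 (r = -0.11). The values for complexes II and V turned positive, 0.16 and 0.15, without the 2 farthest cells. Cytochrome c (Cycs, 8.17) and cytochrome c1 (Cyc1, 8.09) had r = -0.08 as a list (0.16 without the 2 farthest cells), and the testis form Cyct was at 0 in every cell.

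The lists of other metabolism and of the cell cycle had r below 0 with the members. Carriers and porins had -0.40 (rho -0.41, regressed -0.48), led by the adenine nucleotide translocators Slc25a5 at 10.69 and Slc25a4 at 8.50 and by the porin gene Vdac3 at 9.18. Glycolysis had -0.16 (-0.33 without the 2 farthest cells) and a share of 1.82% of gene counts in the median cell, led by Gapdh at 12.13, Ldha at 10.89 and Tpi1 at 10.56. The citric acid cycle had -0.16 (-0.09 without library 19, and 0.09 with the short-transcript share regressed out), with Mdh2 at 8.88 and Idh3g at 8.05. Pyruvate entry had -0.14, led by Mpc1 at 7.53, Pdhb at 6.66 and Mpc2 at 6.44. The S phase list had -0.25 (-0.09 without the 2 farthest cells), led by Pcna at 8.81, Slbp at 8.07 and Rrm2 at 7.17, and the G2 and M phase list had -0.22, led by Birc5 at 7.30, Ube2c at 7.19 and Ccnb2 at 7.12.

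The share of the chain was higher in cells with less RNA per spike-in. Gene counts per ERCC count ranged from 53.6 to 524 with a median of 153. Their r with the members' summed CPM on log2 scales was -0.53 (rho -0.44) over 50 cells, -0.48 without the 2 farthest cells, -0.56 within blocks of label numbers, -0.51 without library 19 and -0.53 with the short-transcript share regressed out. Both measures contain the gene count total, one as its denominator and the other as its numerator. Members with an r below 0 with gene counts per ERCC count were 57 of 78, against 22.6% of all genes tested. They were 43 of 50 short members, where 44.6% of all short genes were below 0, and 14 of 28 long members, where 19.2% of all long genes were. Atp5e, the epsilon subunit of the central stalk, was lowest at -0.53. The number of detected genes had r = -0.32 with the members' sum, and the depth of the library had 0.14. The part of cell size, of RNA capture and of depth in this relation was not tested.

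**Figure D5:**
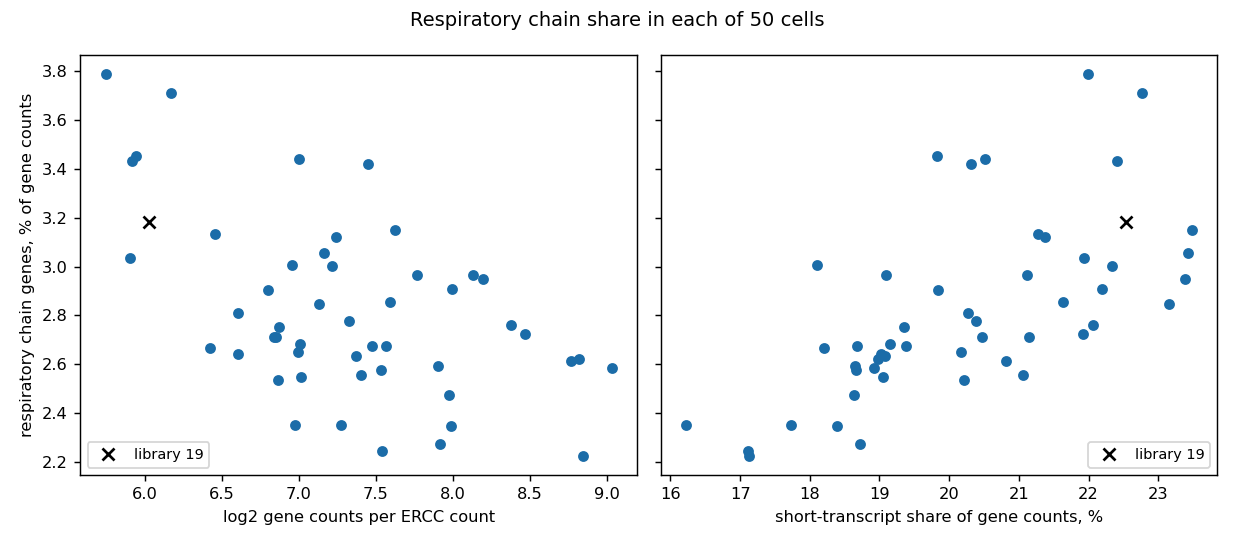
Share of gene counts taken by the 79 genes in each of 50 cells, against log2 gene counts per ERCC count (left, r = -0.53) and against the short-transcript share in percent (right, r = 0.67). The share falls from left to right in the first panel and rises in the second, and the cross marks library 19.

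The counting may blur some of these values. Estimated counts that are not whole come from reads shared between transcripts of different rows or of unequal weight. Over 90% of the values above 0 were not whole for Cox7c (96.3%), Ndufs5 (96.1%), Ndufa5 (92.2%), Atp5j (91.1%) and Ndufa7 (90.4%), so the levels of these genes and the r of pairs with Cox7c or Atp5j are uncertain. For Cox6b1, Ndufa3, Uqcrh and Atp5o the share was 0%.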

How the data were processed

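RNA-sequencing libraries of 62 single cells of 1 culture were analysed. The authors deposited 1 table of estimated counts by gene, and the submitters' processing notes name kallisto and mm9. Neither the kallisto version nor the annotation is stated in the labels. Among values above 0, 66.33% were whole within 1e-06. Gene symbols with an added X before a leading digit or a point in place of a hyphen were repaired against known symbols. The repair matched 1092 rows beside 17942 as given, and 78 stayed unmatched.

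CPM were computed over the sum of 19112 gene rows, without 65 ERCC rows, and taken to log2 after adding 1. Libraries with an ERCC share under 20% were used (50 of 62). Variability was the residual over a lowess trend (fraction 0.3) for genes above 0 in at least 10 libraries (12012). Transcript length was the median exonic length of basic protein-coding transcripts in GENCODE vM21, an annotation of another build, known for 90.9% of rows and all 79 members. A transcript under 1000 bases was called short. The label numbers, which reach 96, gave 8 blocks of 12, treated as possible batches. Start regions are from RefSeq GRCm38.p6. The rule named in each complex the 3 members of highest level, the 2 of largest and the 1 of smallest residual, all paralogs, members found in under 50% of libraries, the 3 leading genes of each list, all regulators and the 6 pairs of highest r. Other genes were named with their values known, and some that the rule takes are not reported here. The members and lists were chosen with earlier results of these data known.

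No count model was fitted and no doublet caller was run. Counts were rounded only for thinning. Intervals on shares of cells cover the sampling of cells only, and floors (3 counts) cover counting error only. The variability residual, the mean r within and between groups and the regression step were tested on simulated counts. The other computations were not tested in this way. Python 3.11.15, numpy 2.4.6, pandas 2.3.3, scipy 1.17.1 and statsmodels 0.14.6 were used.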

Additional observations from a re-analysis of the deposited data

Results flagged for a closer look

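Library 43 is 1 of the 12 libraries with an ERCC share of 20% or more, which the results above do not use. It was singled out because the chain genes were nearly complete in it. Of the 79 genes, 78 were above 0 in library 43, where 9041 genes in all were detected. In the other 11 such libraries between 7 and 44 of the 79 were above 0, and 892 to 5966 genes in all were detected. The cause was not tested. Adding library 43 to the 50 left 77 members above 0 in at least 50% of libraries and gave a median share of 2.72%, against 2.74% without it.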

How the results depend on the processing

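Of 177 values under other settings, 146 stayed within a spread set for each value. For a count the spread was 1.5 times. For an r of summed CPM over cells it was 0.146, the standard error of a weak r if cells are taken as independent. For the rest it was 1 SD over cells, members or complexes. These spreads are wide for some values. The mean pairwise r of 0.127 counted as within its spread of 0.091 at 0.070, with the short-transcript share regressed out. The cause of the 31 that moved was not tested, except where noted. Over all 62 libraries the mean pairwise r was 0.754 in place of 0.127. Coding length gave higher levels per kilobase by its construction, 9.03 (I), 9.15 (II), 10.12 (III), 10.60 (IV) and 10.01 (V), and the mean over members in place of the median gave 7.47 (II), 8.63 (III), 8.001 (IV) and 8.27 (V). With the mean, complex IV was level with complex I, at 8.01. The mean of complex IV takes in Cox7a1 (1.57) and Ndufa4l2 (0.0087), and that of complex V takes in Atp5s (2.61) and Atp5sl (2.08).

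The other values that moved were r of lists with the members. Without the 2 farthest libraries it was 0.16 for the cytochrome c list, 0.16 for complex II assembly, 0.15 for complex V assembly, 0.31 for the regulators, -0.33 for glycolysis and -0.091 for S phase. Without libraries 17 and 19 these were 0.16, 0.16, 0.12, 0.22, -0.38 and -0.091. By Spearman's rho complex II assembly had 0.050, complex IV assembly 0.47 and complex V assembly 0.085. With the short-transcript share regressed out, r was 0.60 for the ATP synthase genes, 0.0067 for complex III assembly, 0.22 for the regulators, 0.092 for the citric acid cycle, 0.48 for the mitochondrial ribosome and 0.035 for the cytosolic ribosome. The settings without library 19 moved none of 27 values beyond the spread. The settings without libraries 17 and 19, without library 19, with library 43 or with the short-transcript share regressed out were chosen after seeing the data.

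Differences between conditions cannot be read from 1 culture. With 50 cells taken as independent, a weak r carries a standard error near 0.146. Cells of 1 culture are not replicates, so this value is only a guide. Gene lengths come from another build, and kallisto's split of shared reads limits genes with many values that are not whole. No paired analysis was possible because there is 1 group and no replicate culture.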
